A study of Mus musculus with 71 samples.

Results

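Rnf11, Reep3, Lonrf1, Nbeal2, Spryd3, Epb41l4a and Tcp11l2 are 7 of the 37620 genes in a count table from mouse embryos that carry different deletions in the miR-17~92 cluster. They were picked by name as genes with a strong response to loss of the cluster's miR-19 family, and the values that picked them are those of Delta_19 and Full-KO, so their levels in these 2 genotypes are given as a description, without a test. C57BL/6 embryos at embryonic day 9.5 (20 to 22 somites) were dissected, and RNA of the tail bud, of the heart and of what was left of the embryo without them (the remaining embryo) was sequenced as single reads of 50 bases, in 71 libraries that fall into 24 groups. Each genotype and tissue had 3 libraries, which the series text calls biological replicates, except the remaining embryo of Delta_17_18_92, which had 2.

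The genotypes were Wild-type (an intact cluster), Delta_17 (without miR-17 and miR-20a), Delta_18 (without miR-18a), Delta_19 (without miR-19a and miR-19b-1), Delta_92 (without miR-92a-1), Delta_17_18 (without the miR-17 and miR-18 families of the cluster), Delta_17_18_92 (with miR-19 as its only family left) and Full-KO (without the whole cluster). Delta_19 and Full-KO therefore lack the cluster's miR-19, and the other 6 genotypes keep it. The labels do not give the zygosity of the embryos or what in the cluster's DNA was replaced. Library totals ran from 13532012 to 27477273 counts.

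A microRNA guides Argonaute proteins to messenger RNAs, mostly by pairing of its seed (bases 2 to 8) with the 3′ untranslated region (3′UTR), and a paired message is translated less and degraded. The cluster's microRNAs are cut from a single primary transcript and fall into 4 seed families, of which miR-19 is best known for its part in the cluster's action in lymphoma. A direct target is therefore known to gain RNA when its microRNA is lost.

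The mature miR-19 sequences are shown beside a member of each other family of the cluster because the alleles differ in which of these seeds they keep. They were taken from RefSeq (GRCm38.p6), are written 5′ to 3′, and have the seed in capitals.
mmu-miR-19a-3p: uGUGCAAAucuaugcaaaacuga
mmu-miR-19b-3p: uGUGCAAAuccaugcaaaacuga
mmu-miR-17-5p: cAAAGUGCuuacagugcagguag
mmu-miR-18a-5p: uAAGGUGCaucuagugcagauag
mmu-miR-92a-3p: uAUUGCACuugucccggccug
The 2 miR-19 sequences differ at 1 base (U11C, counted from the 5′ end of miR-19a-3p), outside the seed. All are encoded on the plus strand of chromosome 14, where miR-19a-3p lies at chr14:115044048-115044070 and miR-19b-3p at chr14:115044358-115044380. The same miR-19b-3p is also encoded by Mir19b-2 on the X chromosome (chrX:52741991-52742013, minus strand), outside the deleted cluster, so no genotype here is without every copy of the family.

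Of the 7 genes, 5 held a full match to the miR-19 seed in their 3′UTR. The match searched was the 8mer TTTGCACA (the complement of the seed followed by A) on the sense strand of the longest annotated 3′UTR of each gene (GENCODE M21, GRCm38). Such an 8mer was present in 5.24% of the 19738 genes with a 3′UTR and in 7.03% of those with a 3′UTR of 1000 to 3000 bases. Rnf11 and Lonrf1 each held 2, and Reep3, Nbeal2 and Spryd3 held 1 each. The genes may have been proposed with these matches known, so the count is a description. Each match is shown with the 22 bases before it and the 8mer in capitals, since these are the letters the miR-19 seed would pair with.
Rnf11, 8mer from base 483 of the 3′UTR: aaaaatagtagttttaagcttgTTTGCACA
Rnf11, from base 1116: aggagaggcaaatgtgttatgtTTTGCACA
Reep3, from base 536: acatagcactttcctggctagtTTTGCACA
Lonrf1, from base 121: acagccggattgcccgctgcctTTTGCACA
Lonrf1, from base 702: gatttattcccccatgcttctcTTTGCACA
Nbeal2, from base 192: ctctgaggccgctgctgcatatTTTGCACA
Spryd3, from base 893: cagccggagctcttggtctcagTTTGCACA
All lie on the minus strand of GRCm38, and the 8mers are at chr4:109453761-109453768 and chr4:109453128-109453135 (Rnf11), chr10:67013187-67013194 (Reep3), chr8:36217315-36217322 and chr8:36216734-36216741 (Lonrf1), chr9:110624926-110624933 (Nbeal2) and chr15:102116679-102116686 (Spryd3).

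The 3′UTRs that carry these matches were of very different lengths, from 336 bases in Nbeal2 to 4541 in Reep3, with 3153 in Rnf11, 1379 in Lonrf1 and 1051 in Spryd3. The 30 bases on either side of the 8mer were 76.7% and 55.0% A or T in Rnf11, 63.3% in Reep3, 46.7% and 60.0% in Lonrf1, 40.0% in Nbeal2 and 38.3% in Spryd3, against a median of 58.3% over 1122 such 8mers. Epb41l4a (1015 bases of 3′UTR) and Tcp11l2 (633 bases) held neither the 8mer nor the 7mer-m8 TTTGCAC, which is the 8mer without its last A. Tcp11l2 held 1 7mer-A1 match, TTGCACA with a mismatch at seed base 8, which 7.2% of genes hold, and Epb41l4a held none. Lonrf1 also held 1 7mer-A1 in its 3′UTR besides its 8mers, and 1 miR-19 8mer or 7mer-m8 in its coding sequence or 5′UTR.

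Reep3 was the single gene of the 7 with an 8mer or 7mer-m8 match to another family of the cluster. The 7mer-A1 was searched for miR-19 alone. Its 3′UTR held a miR-17 7mer-m8, GCACTTT, at bases 519 to 525, shortly before its miR-19 8mer at bases 536 to 543 (chr10:67013205-67013211, minus strand). It is shown because the alleles that lack miR-17 are compared below.
Reep3, miR-17 match in capitals: tttgaaaaccaggtgtccacataGCACTTT
A miR-17 8mer (GCACTTTA) or 7mer-m8 was present in 12.1% of genes, and no 8mer or 7mer-m8 of the miR-18 family (GCACCTTA, GCACCTT) or of the miR-92 family (GTGCAATA, GTGCAAT) was found in the 3′UTRs of the 7 genes.

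**Figure D1:**
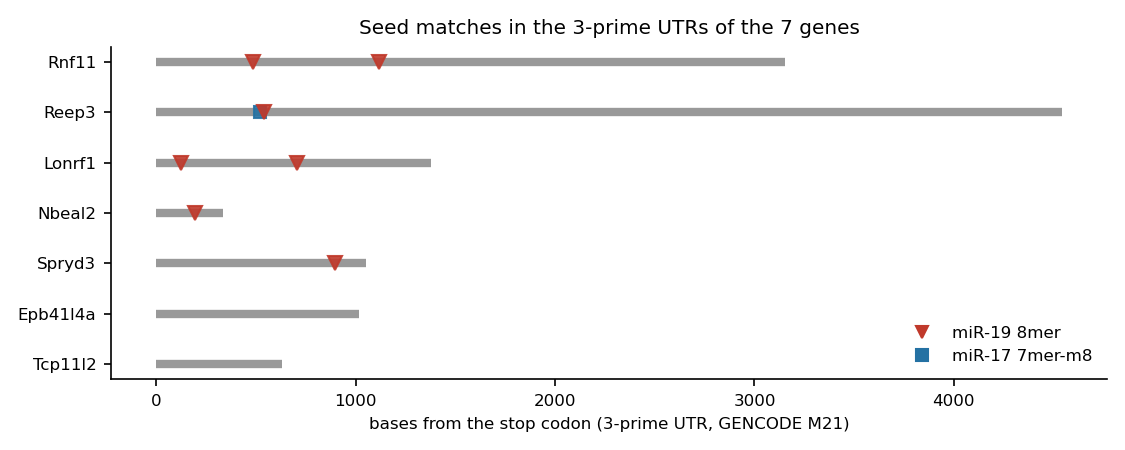
The 3′UTR of each gene drawn to scale as a grey bar, in bases from the stop codon, with miR-19 8mers as red triangles and the miR-17 7mer-m8 as a blue square. The 5 upper genes hold 1 or 2 miR-19 8mers each, the miR-17 match of Reep3 lies next to its miR-19 match, and Epb41l4a and Tcp11l2 hold neither.

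The deleted locus was read through Mir17hg, the host transcript of the cluster, because the 6 hairpin genes of the cluster had 0 counts in every library. Mir17hg does not check the deletions, since its exons outside the hairpins can still be counted. In CPM (counts scaled to library size, with TMM factors over the 71 libraries), Wild-type libraries had 126, 137 and 105 in tail bud, 43.2, 47.1 and 43.4 in heart and 142, 149 and 147 in remaining embryo. Full-KO libraries had 340 to 348, 154 to 160 and 398 to 430 in the same order, and Delta_19 libraries 163 to 178, 58.5 to 66.2 and 215 to 232, all above Wild-type. The host transcript was lowest in heart among Wild-type tissues, at -1.47 ± 0.08 on the log2 scale against tail bud (edgeR adjusted p = 6.87e-09).

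The dissected tissues carried their own markers: the summed CPM of 6 heart muscle genes was 26200 to 31100 in heart libraries, 14.3 to 34.6 in tail bud and 143 to 494 in the remaining embryo, and that of 7 tail bud genes was 578 to 896 in tail bud, 8.41 to 22.9 in heart and 29.7 to 41.8 in remaining embryo. Blood markers varied widely within 2 of the tissues: the sum of 6 primitive erythroid genes ran from 744 to 12400 CPM in heart libraries and from 766 to 11600 in tail bud.

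Rnf11, Reep3 and Lonrf1 had 1.77 to 1.95 times their Wild-type RNA in Delta_19 tail bud and remaining embryo, and 1.33 to 1.43 times in heart. The plot of every library shows the red libraries of Delta_19 and Full-KO above all libraries that keep miR-19 for these 3 genes in each tissue. Over the 7 genes and 3 tissues, all 6 libraries without the cluster's miR-19 lay above all 17 or 18 libraries with it in 15 of 21 combinations, and in 14 of the 15 combinations of the genes with a miR-19 8mer. Of all genes tested, 0.382% in tail bud, 0.149% in heart and 0.405% in remaining embryo had this pattern, and since the 7 genes were chosen on these libraries nothing is read from the contrast. In bulk tissue, more RNA per cell and more cells that carry the RNA cannot be told apart.

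**Figure D2:**
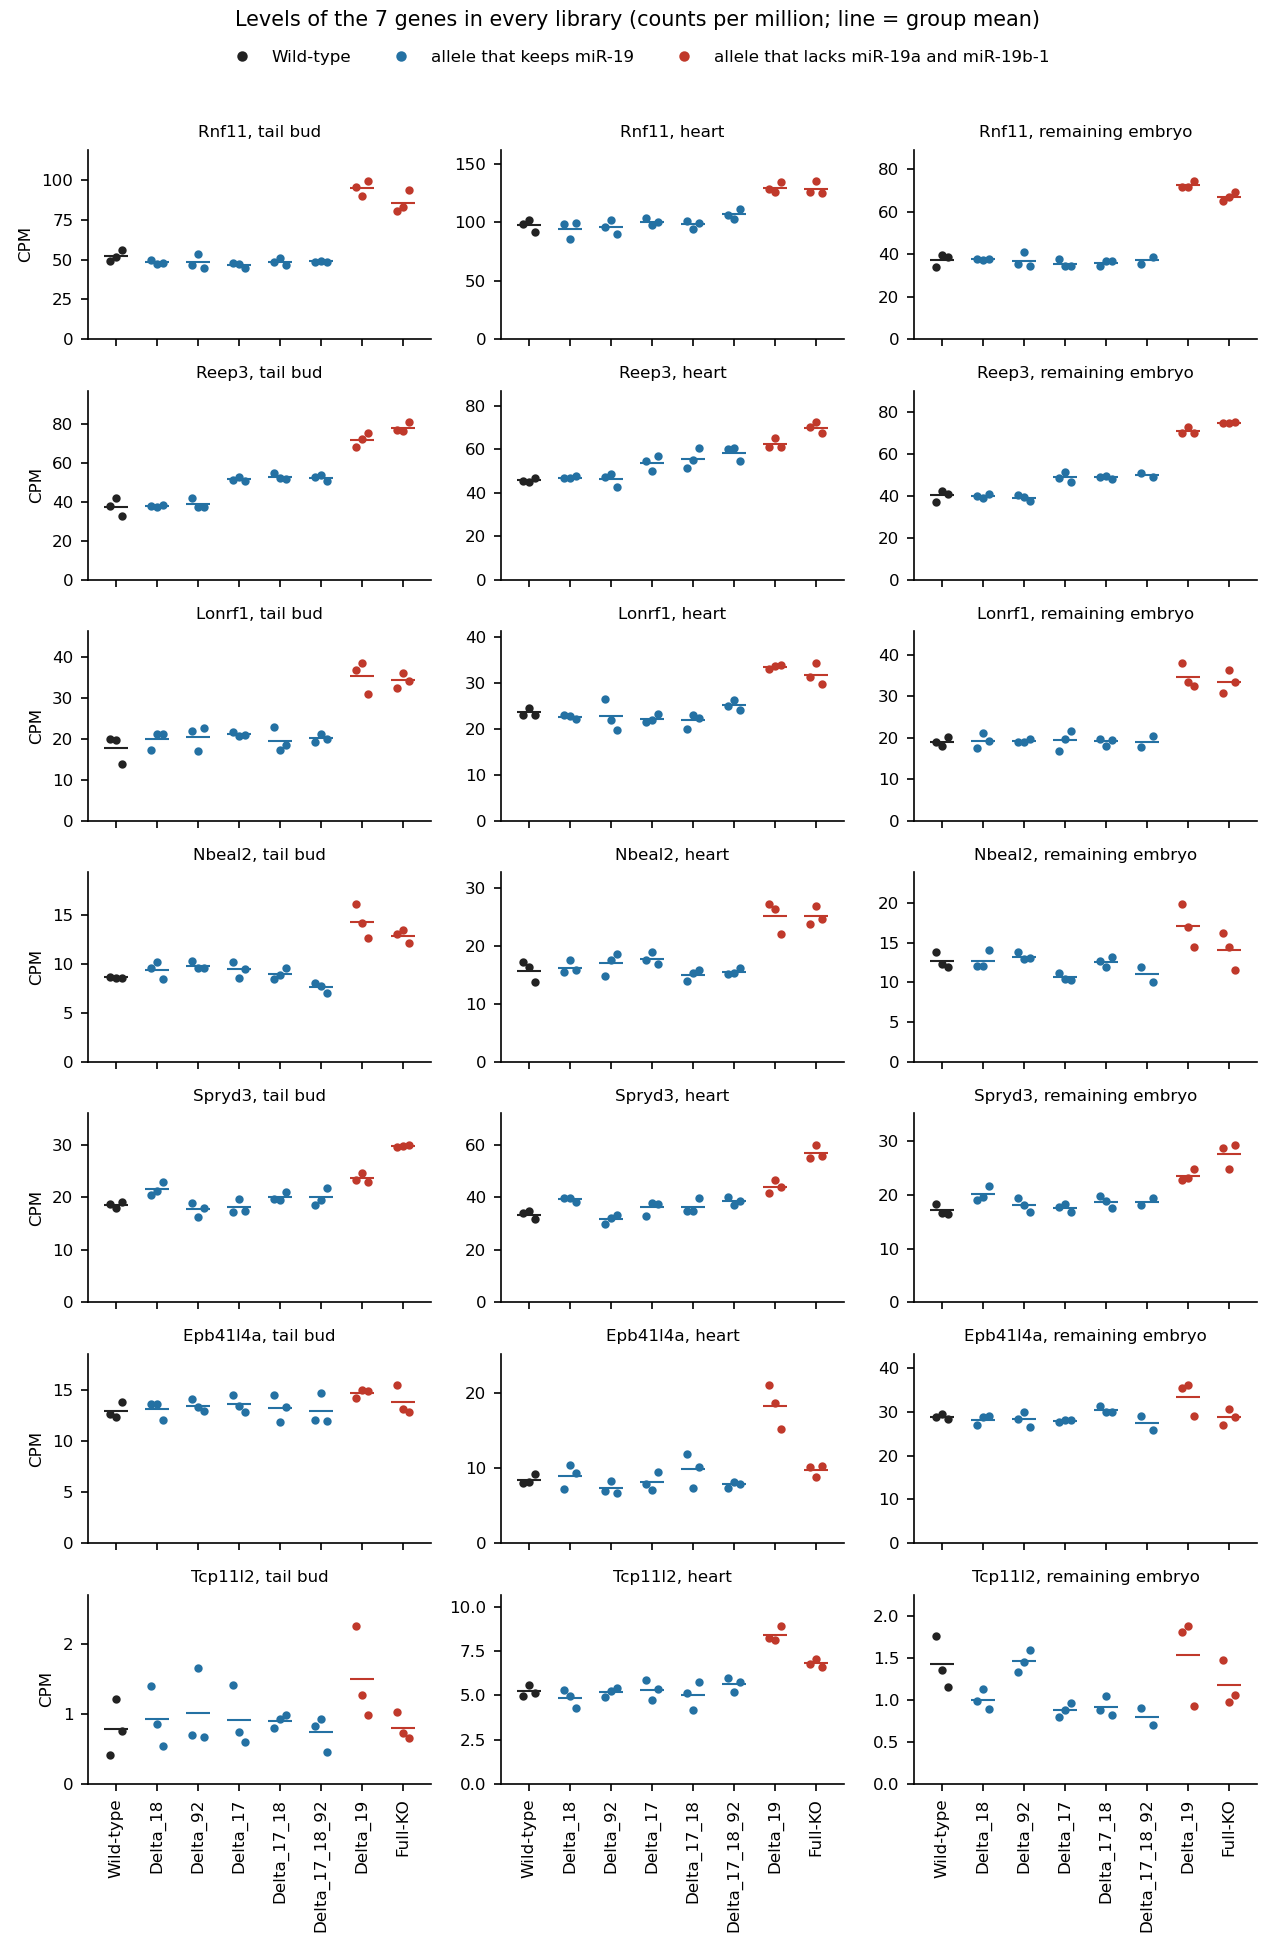
CPM of each gene (rows) in each tissue (columns), with 1 point per library and a line at the group mean, for Wild-type (black), alleles that keep miR-19 (blue) and alleles without it (red). Red points lie above all others in every panel of Rnf11, Reep3, Lonrf1 and Spryd3, and Epb41l4a stands out in Delta_19 heart, where its libraries reach 15.2 to 21.0 CPM.

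Rnf11 encodes a small RING-finger protein that works with the A20 ubiquitin-editing complex and with HECT ubiquitin ligases. Its Wild-type libraries had 49.3, 51.8 and 55.8 CPM in tail bud, against 95.9, 90.1 and 99.2 in Delta_19 and 80.8, 82.8 and 93.8 in Full-KO. The lowest library without miR-19 (80.8) was well above the highest with it (55.8). In the remaining embryo Wild-type had 34.0, 39.7 and 38.6 CPM, Delta_19 71.7, 71.5 and 74.3 and Full-KO 65.1, 66.7 and 69.0. In heart, where the gene is most abundant, Wild-type had 98.6, 102 and 92.0 CPM, Delta_19 129, 126 and 134 and Full-KO 126, 135 and 125. The log2 fold changes of Delta_19 were 0.85 ± 0.07 (SE from the fit), 0.41 ± 0.06 and 0.95 ± 0.06 in tail bud, heart and remaining embryo. Those of Full-KO were 0.71 ± 0.07, 0.41 ± 0.06 and 0.83 ± 0.06.

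Reep3 encodes an endoplasmic reticulum membrane protein that helps to clear that membrane from chromosomes in mitosis. It had 37.6, 41.8 and 32.5 CPM in Wild-type tail bud, 68.4, 72.1 and 75.2 in Delta_19 and 76.6, 76.5 and 80.9 in Full-KO. In heart it had 45.5, 44.8 and 46.7 CPM in Wild-type, 60.9, 65.4 and 61.1 in Delta_19 and 70.0, 72.5 and 67.5 in Full-KO. The remaining embryo had 37.3, 42.4 and 41.1 CPM in Wild-type, 70.2, 72.8 and 70.1 in Delta_19 and 74.5, 74.6 and 75.1 in Full-KO. Every Full-KO library was above every Delta_19 library in all 3 tissues, by 0.12 ± 0.06, 0.17 ± 0.06 and 0.07 ± 0.05 on the log2 scale in tail bud, heart and remaining embryo. Against Wild-type, its log2 fold changes were 0.93 ± 0.06, 0.46 ± 0.06 and 0.82 ± 0.05 in Delta_19.

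Lonrf1, which encodes a protein with a LON protease N-terminal domain and RING fingers, had 20.0, 19.9 and 13.9 CPM in Wild-type tail bud, 37.0, 38.6 and 30.9 in Delta_19 and 32.6, 36.2 and 34.3 in Full-KO. Its heart libraries had 23.0, 24.6 and 22.9 CPM in Wild-type, 33.0, 33.7 and 33.8 in Delta_19 and 31.3, 34.3 and 29.6 in Full-KO. Its log2 fold changes in tail bud, heart and remaining embryo were 0.96 ± 0.13, 0.51 ± 0.08 and 0.87 ± 0.08 in Delta_19 and 0.92 ± 0.13, 0.44 ± 0.08 and 0.81 ± 0.08 in Full-KO. Delta_19 and Full-KO libraries overlapped for this gene in every tissue.

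Spryd3, which encodes a protein with a SPRY domain, was higher in Full-KO than in Delta_19 throughout. In heart its libraries had 33.8, 34.6 and 31.5 CPM in Wild-type, 41.6, 46.6 and 43.9 in Delta_19 and 55.1, 60.0 and 55.6 in Full-KO. In tail bud they had 18.8, 17.9 and 19.1 CPM, 23.2, 24.5 and 23.0 and 29.6, 29.7 and 30.0 in the same order. In the remaining embryo the highest Delta_19 library had 24.77 CPM and the lowest of Full-KO 24.78, so these 2 genotypes were barely apart there. The 3 genotypes did not overlap in any tissue, and Full-KO exceeded Delta_19 by 0.33 ± 0.07, 0.37 ± 0.06 and 0.22 ± 0.07 in tail bud, heart and remaining embryo. The log2 fold changes of Delta_19 were 0.33 ± 0.08, 0.41 ± 0.07 and 0.46 ± 0.08 in that order.

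Nbeal2 encodes a BEACH-domain protein needed for the alpha granules of platelets, and its loss causes gray platelet syndrome in humans. It had 8.67, 8.55 and 8.53 CPM in Wild-type tail bud, 16.1, 14.1 and 12.6 in Delta_19 and 13.0, 13.4 and 12.1 in Full-KO. Heart libraries had 17.1, 16.3 and 13.7 CPM in Wild-type, 27.3, 26.3 and 22.1 in Delta_19 and 23.8, 26.9 and 24.7 in Full-KO. The remaining embryo was less clear, with 13.8, 12.3 and 12.0 CPM in Wild-type, 19.9, 17.0 and 14.5 in Delta_19 and 16.2, 14.5 and 11.6 in Full-KO, so that Full-KO overlapped Wild-type there. The log2 fold changes of Delta_19 were 0.72 ± 0.10, 0.69 ± 0.10 and 0.44 ± 0.11, and those of Full-KO 0.57 ± 0.10, 0.69 ± 0.10 and 0.15 ± 0.11, in tail bud, heart and remaining embryo.

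Because Nbeal2 is known from platelets, 4 platelet and megakaryocyte genes (Pf4, Itga2b, Gp9 and Gp1bb) were summed. The sums were 11.8, 15.6 and 10.4 CPM in Wild-type tail bud, 15.1, 9.26 and 11.4 in Delta_19 and 6.35, 10.9 and 10.6 in Full-KO, and 20.3, 22.5 and 31.4 in Wild-type heart, 22.6, 49.6 and 27.4 in Delta_19 and 28.5, 15.0 and 20.5 in Full-KO. These sums overlapped between Wild-type and both alleles. Their part in the Nbeal2 values was not tested.

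Epb41l4a and Tcp11l2, the genes without a full seed match, had other patterns. Epb41l4a encodes a FERM-domain protein of the band 4.1 family. In heart it had 7.97, 8.19 and 9.18 CPM in Wild-type, 21.0, 18.7 and 15.2 in Delta_19 and 10.1, 8.87 and 10.3 in Full-KO, so that Delta_19 libraries stood above all others while Full-KO overlapped Wild-type. Its log2 fold change in heart was 1.12 ± 0.14 in Delta_19 and 0.22 ± 0.15 in Full-KO, and Full-KO lay below Delta_19 by 0.90 ± 0.14. In tail bud it had 12.6, 12.4 and 13.9 CPM in Wild-type, 14.2, 15.0 and 14.9 in Delta_19 and 15.4, 13.1 and 12.8 in Full-KO, and in the remaining embryo 28.8, 29.4 and 28.3, 35.4, 36.0 and 28.9, and 26.9, 30.7 and 28.7. The log2 fold changes of Delta_19 there were 0.17 ± 0.10 and 0.22 ± 0.07.

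The same Delta_19 hearts differed in blood. Their summed erythroid markers were 5079, 12350 and 1135 CPM, against 1075, 1592 and 3030 in Wild-type heart and 1541, 1634 and 1248 in Full-KO heart. The Delta_19 library with 1135 CPM of erythroid RNA, within the Wild-type range, had 15.2 CPM of Epb41l4a, the lowest of its group and above all Wild-type libraries. The log2 fold change was 1.01 to 1.24 without each Delta_19 heart library in turn. The part of blood in these values was not tested. Tail bud markers (18.1, 13.8 and 9.18 CPM in Delta_19 heart, 16.5, 12.5 and 11.4 in Wild-type) and markers of head and brain (5.14, 3.99 and 4.99 against 5.26, 5.26 and 7.06) were low in these hearts in both genotypes.

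Tcp11l2, a relative of the testis gene Tcp11, was scarce outside the heart. Heart libraries had 4.99, 5.59 and 5.12 CPM in Wild-type, 8.25, 8.09 and 8.88 in Delta_19 and 6.77, 7.07 and 6.61 in Full-KO, with no overlap between the 3 genotypes and log2 fold changes of 0.69 ± 0.12 and 0.39 ± 0.12. In tail bud it had 0.411, 1.21 and 0.752 CPM in Wild-type and 2.25, 1.27 and 0.980 in Delta_19, which overlapped, for a log2 fold change of 0.88 ± 0.43 that ranged from 0.48 (without Delta_19 replicate 1) to 1.397 (without Wild-type replicate 2) when each of these 6 libraries was left out. The Delta_19 tail bud library with 2.25 CPM also had the most erythroid RNA of its group (9091 CPM against 3412 and 5716), and the part of blood in the value was not tested. In Full-KO the gene had 1.02, 0.722 and 0.652 CPM in tail bud and 1.48, 0.974 and 1.06 in the remaining embryo, and both overlapped Wild-type.

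**Figure D3:**
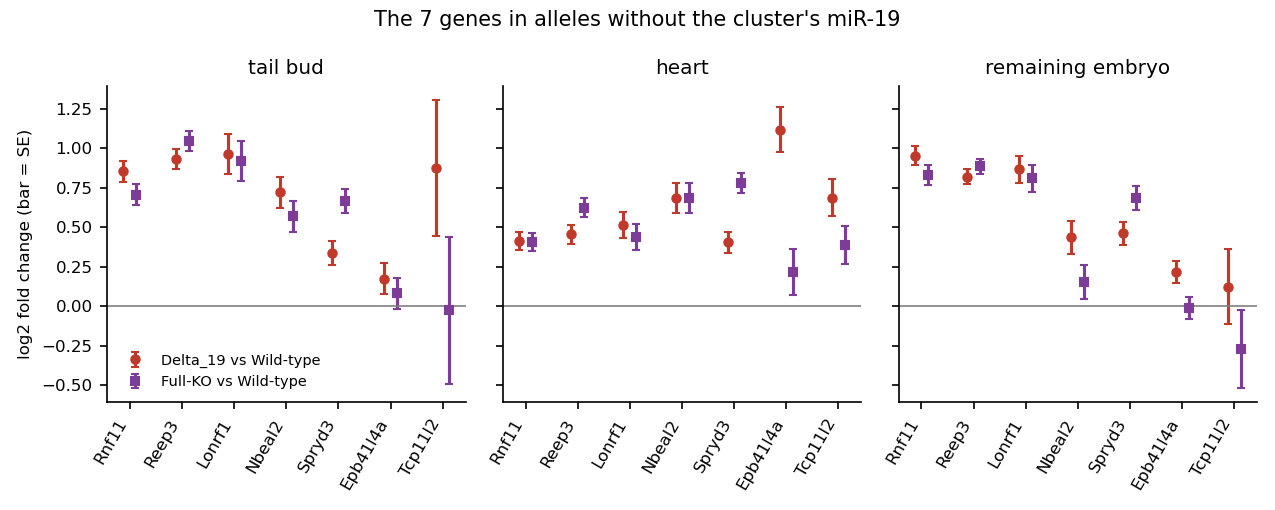
Log2 fold change against Wild-type of each gene in Delta_19 (red circles) and Full-KO (purple squares), by tissue, with SE bars. Rnf11, Reep3 and Lonrf1 lie near 0.9 outside the heart and near 0.5 in it, Spryd3 is higher in Full-KO in each tissue, and Epb41l4a is highest in Delta_19 heart, at 1.12.

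Counted over the 7 genes, all Delta_19 libraries lay above all Wild-type libraries for 6 genes (tail bud), 7 (heart) and 5 (remaining embryo). The same held for 8.53% of 17004, 7.26% of 16750 and 7.73% of 17512 genes tested in those tissues. In Full-KO the counts were 5, 6 and 4 of 7, against 14.3%, 11.1% and 13% of all genes. Nothing is read from these shares, since the genes were chosen for these values. The median log2 fold change of the 7 genes was 0.85, 0.51 and 0.46 in Delta_19 and 0.67, 0.44 and 0.69 in Full-KO for tail bud, heart and remaining embryo, where the median over all genes lay within 0.02 of 0. Of 17009 genes ranked by log2 fold change in Delta_19 tail bud, Lonrf1 stood 116th, Reep3 125th, Tcp11l2 161st, Rnf11 172nd, Nbeal2 273rd, Spryd3 1264th and Epb41l4a 2769th.

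By their labels, Full-KO and Delta_17_18_92 differ in miR-19 alone, so their difference gives the response on a background that lacks the other families. For Rnf11 it was 0.81 ± 0.07, 0.29 ± 0.05 and 0.86 ± 0.07 on the log2 scale in tail bud, heart and remaining embryo. For Lonrf1 it was 0.77 ± 0.12, 0.36 ± 0.08 and 0.82 ± 0.10, and for Nbeal2 0.76 ± 0.10, 0.72 ± 0.10 and 0.37 ± 0.12. For Spryd3 it was 0.57 ± 0.07, 0.59 ± 0.06 and 0.57 ± 0.08, above the Delta_19 value in each tissue. Reep3 had 0.57 ± 0.06, 0.29 ± 0.06 and 0.59 ± 0.05, below its Delta_19 value in each tissue. Epb41l4a had 0.09 ± 0.10, 0.34 ± 0.15 and 0.08 ± 0.08, and Tcp11l2 0.12 ± 0.46, 0.30 ± 0.12 and 0.56 ± 0.30. All Full-KO libraries lay above all Delta_17_18_92 libraries for 5, 7 and 5 of the 7 genes in that order, where 9.87%, 9.22% and 14.6% of all genes tested did. Full-KO is among the genotypes that chose the genes, so these too are given without a test.

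The alleles that keep miR-19 were tested against Wild-type, because loss of the other families did not define the genes, although the Wild-type libraries are the same ones. Of the 7 genes, Reep3 was the only gene that edgeR's quasi-likelihood test called in any of these 5 alleles (Benjamini-Hochberg adjusted p below 0.05), and it was called in the 3 that lack miR-17 and miR-20a. Its levels in tail bud were 51.2, 52.6 and 50.9 CPM in Delta_17, 54.7, 52.2 and 51.6 in Delta_17_18 and 52.9, 53.9 and 50.6 in Delta_17_18_92, against the 32.5 to 41.8 of Wild-type. These 9 libraries lay between Wild-type and Delta_19 without overlap. In Delta_18 (37.7, 37.5 and 38.6) and Delta_92 (42.1, 37.3 and 37.3) Reep3 overlapped Wild-type.

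Reep3 rose in tail bud by 0.45 ± 0.07 in Delta_17 (edgeR adjusted p = 0.000122), 0.49 ± 0.07 in Delta_17_18 (adjusted p = 3.69e-05) and 0.48 ± 0.06 in Delta_17_18_92 (adjusted p = 3.7e-05). In the remaining embryo it rose by 0.28 ± 0.05 (edgeR adjusted p = 0.000681), 0.28 ± 0.05 (0.000538) and 0.30 ± 0.05 (0.000556) in the same alleles. In heart it rose by 0.30 ± 0.06 in Delta_17_18 (adjusted p = 0.00829 by edgeR) and 0.34 ± 0.06 in Delta_17_18_92 (adjusted p = 0.00155), and had 0.24 ± 0.06 in Delta_17 (adjusted p = 0.0641), where all 3 libraries (54.8, 50.3 and 56.8 CPM) were above the Wild-type ones and DESeq2 called it. The heart call in Delta_17_18 was lost without Wild-type heart replicate 1 (adjusted p = 0.0672, edgeR) or without Delta_17_18 heart replicate 3 (adjusted p = 0.0959). With the fit limited to the 2 genotypes compared, edgeR's adjusted p rose to 0.176, 0.0806 and 0.0709 in tail bud for the 3 alleles and to 0.0683 in heart for Delta_17_18, at fold changes of 0.46, 0.49, 0.48 and 0.30.

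**Figure D4:**
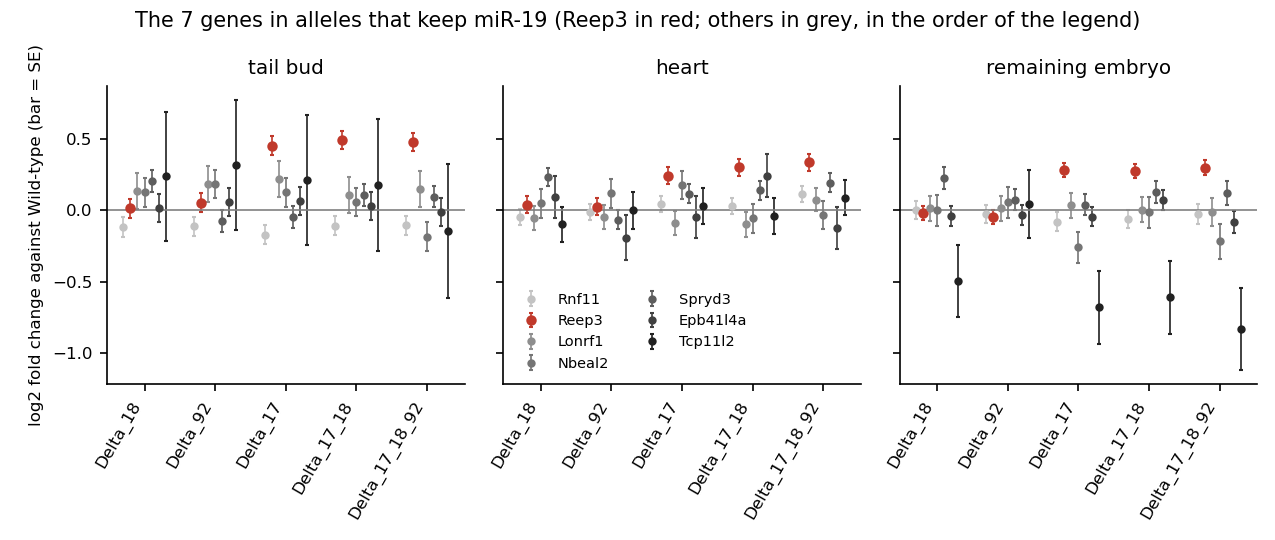
Log2 fold change against Wild-type in the 5 alleles that keep miR-19, by tissue, with SE bars; Reep3 is red and the other 6 genes are grey, in the order of the legend from left to right. Reep3 is near 0 in Delta_18 and Delta_92 and between 0.24 and 0.49 in the 3 alleles without miR-17, and the other genes scatter around 0 with wide bars for Tcp11l2 outside the heart.

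Of 35 gene and allele pairs, edgeR called 3 in tail bud, 2 in heart and 3 in remaining embryo, all of them Reep3 and all higher. As background, the share of all genes called in tail bud was 1.77% in Delta_17, 0.129% in Delta_18, 0.359% in Delta_92, 8.31% in Delta_17_18 and 5.57% in Delta_17_18_92. In heart it was 0.555%, 0.0418%, 0.0716%, 1.12% and 1.89% in the same order. In the remaining embryo it was 1.56%, 0.36%, 0.588%, 4.44% and 5.62%. In Delta_18 no gene of the 7 was called by edgeR or DESeq2 and 1 in each tissue had an unadjusted p below 0.05. In Delta_92 no gene was called by either tool in any tissue, and 0 had an unadjusted p below 0.05.

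The gene with the low unadjusted p in Delta_18 was Spryd3. Its libraries had 20.5, 21.1 and 22.8 CPM in Delta_18 tail bud, 39.9, 39.5 and 38.1 in heart and 19.1, 19.6 and 21.6 in the remaining embryo. All were above the Wild-type libraries of their tissue, by 0.20 ± 0.08, 0.23 ± 0.07 and 0.22 ± 0.08 on the log2 scale, but edgeR's adjusted p was 0.302, 0.772 and 0.223. Spryd3 also had all libraries above Wild-type in Delta_17_18_92 heart, at 0.19 ± 0.07 (adjusted p = 0.152, edgeR). No threshold was passed, so a rise of this size was not shown.

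Rnf11 did not differ from Wild-type by the test in any of the 15 comparisons of alleles that keep miR-19. Its log2 fold changes ran from -0.17 ± 0.07 in Delta_17 tail bud (edgeR adjusted p = 0.223) to 0.11 ± 0.06 in Delta_17_18_92 heart (adjusted p = 0.369). The 95% interval in Delta_17_18_92 was -0.24 to 0.03 in tail bud and -0.16 to 0.11 in the remaining embryo, which leaves out a change of the size seen in Delta_19. Its heart interval, 0.006 to 0.222, and that of Delta_17 tail bud, -0.303 to -0.04, left out 0. These intervals are not adjusted for the number of genes tested. Lonrf1 ran from -0.10 ± 0.09 in Delta_17_18 heart (adjusted p = 0.677) to 0.22 ± 0.13 in Delta_17 tail bud (adjusted p = 0.398).

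Nbeal2 had low values in Delta_17_18_92 outside the heart and in Delta_17 in the remaining embryo. Its libraries had 8.01, 7.76 and 7.02 CPM in Delta_17_18_92 tail bud, all below Wild-type, for -0.19 ± 0.10 (edgeR adjusted p = 0.289). In the remaining embryo it had 11.2, 10.4 and 10.3 CPM in Delta_17 and 11.9 and 10.1 in Delta_17_18_92, again all below Wild-type, for -0.26 ± 0.11 (adjusted p = 0.392) and -0.22 ± 0.12 (adjusted p = 0.364). None of these passed the threshold. Delta_17 tail bud, with 10.2, 8.56 and 9.49 CPM, overlapped Wild-type.

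Tcp11l2 was low in the remaining embryo in 4 alleles that keep miR-19: 0.791 to 0.959 CPM in Delta_17, 0.887 to 1.12 in Delta_18, 0.819 to 1.04 in Delta_17_18 and 0.699 and 0.898 in Delta_17_18_92. All of these libraries were below the Wild-type ones (1.75, 1.36 and 1.15), which are the same for each allele, so the 4 are not separate observations. The fold change furthest from 0, -0.83 ± 0.29 in Delta_17_18_92, had an edgeR adjusted p of 0.0902, so no threshold was passed. The share of all genes with libraries below Wild-type in this way was not counted. Epb41l4a ran from -0.19 ± 0.15 in Delta_92 heart (adjusted p = 0.944) to 0.24 ± 0.15 in Delta_17_18 heart (adjusted p = 0.504), and in none of these alleles did it pass the test in heart.

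The host transcript of the cluster rose in Delta_17_18_92, in which miR-19 is the only family kept, but also in alleles without miR-19 and in others that keep it. Mir17hg was higher in Delta_17_18_92 than in Wild-type by 1.71 ± 0.07 in tail bud, 1.75 ± 0.08 in heart and 1.59 ± 0.06 in remaining embryo, with edgeR adjusted p-values of 2.12e-14, 2.92e-13 and 5.07e-17. In that order it rose by 1.48 ± 0.07, 1.83 ± 0.08 and 1.48 ± 0.05 in Full-KO and by 0.47 ± 0.07, 0.48 ± 0.08 and 0.61 ± 0.05 in Delta_19. Among the other alleles that keep miR-19, it rose by 0.92, 0.96 and 0.94 in Delta_17 and by 1.01, 0.93 and 0.89 in Delta_17_18. Delta_92 had 0.39, 0.33 and 0.40, uncalled in heart (edgeR adjusted p = 0.281). Delta_18 had 0.09, -0.10 and 0.04 and was not called. Full-KO against Delta_17_18_92 was not called (edgeR adjusted p = 0.199, 0.578 and 0.458). No gene of the 7 was called lower in Delta_17_18_92 in any tissue. Of all genes, 5.57%, 1.89% and 5.62% were called there in either direction, so nothing is read from this absence of calls. The levels of mature miR-19 were not measured in these libraries.

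Between Wild-type tissues, most of the 7 genes were highest in heart. In edgeR's test on the 9 Wild-type libraries, heart was higher than tail bud for 6 genes and lower for Epb41l4a, where 68.6% of all genes were called in either direction. Heart was higher than the remaining embryo for 5 genes and lower for Epb41l4a, against 68.1% of all genes called. Tail bud was higher than the remaining embryo for Rnf11 and lower for Nbeal2 and Epb41l4a, against 29.8%. These shares take both directions together, and the share of all genes called higher in heart was not counted. Nothing is therefore read from the counts of the 7.

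Tcp11l2 had the widest tissue difference of the 7. Heart exceeded tail bud by 2.70 ± 0.28 (edgeR adjusted p = 2.35e-06) and the remaining embryo by 1.88 ± 0.26 (adjusted p = 2.85e-05), and the other tissues had -0.82 ± 0.32 for tail bud against the remainder (adjusted p = 0.0778). Rnf11 was ordered heart, tail bud, remaining embryo, with differences of 0.90 ± 0.08 between heart and tail bud (adjusted p = 2.97e-07) and 0.48 ± 0.08 between tail bud and the remainder (adjusted p = 0.00038). Spryd3 was higher in heart by 0.84 ± 0.08 over tail bud (adjusted p = 6.64e-07) and 0.95 ± 0.08 over the remainder (adjusted p = 2.03e-07), and those 2 tissues differed by 0.12 ± 0.08 (adjusted p = 0.308).

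Epb41l4a had the opposite order, with the remaining embryo above tail bud by 1.16 ± 0.09 and tail bud above heart by 0.62 ± 0.09, so its Wild-type level was lowest in heart, the tissue with its highest Delta_19 fold change. In edgeR's test tail bud lay at -1.16 against the remainder (adjusted p = 3.75e-07) and heart at -0.62 against tail bud (adjusted p = 5.88e-05). Nbeal2 was ordered heart, remaining embryo, tail bud, with 0.30 ± 0.10 between heart and remainder (adjusted p = 0.0208) and -0.56 ± 0.11 for tail bud against the remainder (adjusted p = 0.00151).

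Reep3 and Lonrf1 varied least. Lonrf1 was higher in heart than in tail bud by 0.38 ± 0.12 (edgeR adjusted p = 0.0152) and than in the remainder by 0.30 ± 0.12 (adjusted p = 0.0414). Reep3 was higher in heart than in tail bud by 0.28 ± 0.09 (adjusted p = 0.0127), and heart and remainder differed by 0.18 ± 0.09 (adjusted p = 0.094). Small calls rested on single libraries: without any 1 of the 6 heart and remaining-embryo libraries, the call of Lonrf1 between them was lost (adjusted p from 0.0527 to 0.13, edgeR), as was its call against tail bud without Wild-type heart replicate 2 (0.0562). That of Nbeal2 between heart and remainder was lost without heart replicate 1 or 2 or remaining embryo replicate 2 or 3 (0.0715 to 0.089). Reep3 between heart and remainder was called without tail bud replicate 3 (0.0221), and Tcp11l2 between tail bud and remainder without tail bud replicate 2 (-1.34, adjusted p = 0.00912).

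**Figure D5:**
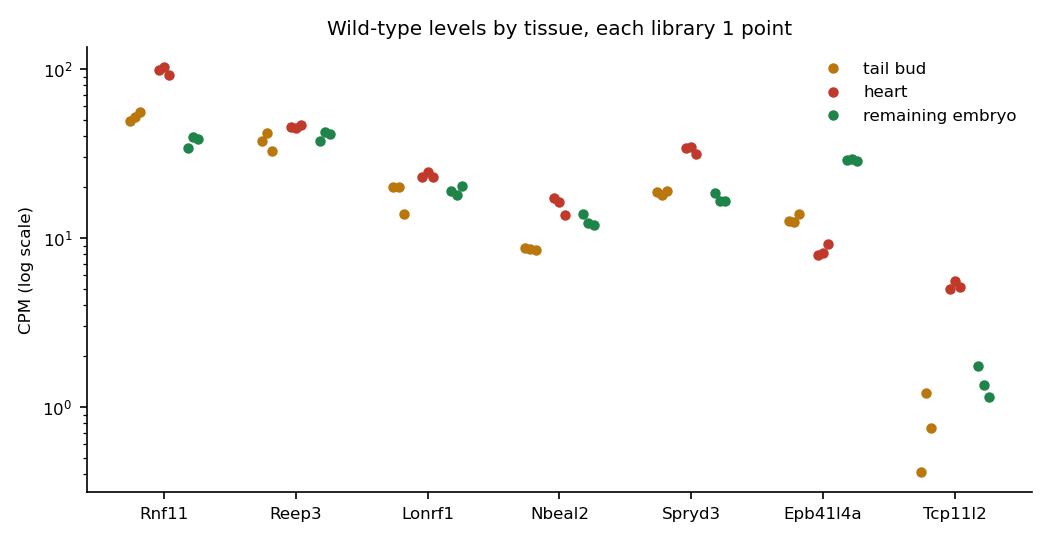
CPM of each gene in the 9 Wild-type libraries on a log scale, coloured by tissue. Heart points (red) are highest for Rnf11, Spryd3 and Tcp11l2 and lowest for Epb41l4a, with 7.97 to 9.18 CPM; CPM is not corrected for transcript length, so points compare tissues within a gene.

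Genes reported elsewhere as miR-19 targets gave a comparison list of 25, of which 24 were tested in tail bud and 25 in the other tissues. In Delta_19, edgeR called 6 of them in tail bud, 2 in heart and 5 in remaining embryo, all higher, where 1.03%, 0.406% and 1.88% of all genes were called. In Full-KO it called 10, 5 and 12, all higher, where 10.4%, 3.91% and 6.66% of all genes were called. The list's median log2 fold change was 0.14, 0.06 and 0.10 in Delta_19 and 0.26, 0.18 and 0.17 in Full-KO, beside medians of all genes within 0.02 of 0. A miR-19 8mer was present in 15 of the 25 genes. This list and those of relatives and partners below were drawn up with earlier results of these data known. Their counts and p-values are therefore a description and not an independent check.

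Mylip, the E3 ligase that marks the LDL receptor for degradation, was the gene of the list called in Delta_19 in all 3 tissues. It rose by 0.84 ± 0.11 in tail bud (edgeR adjusted p = 0.000225), 0.56 ± 0.12 in heart (adjusted p = 0.0261) and 0.44 ± 0.08 in remaining embryo (adjusted p = 0.00336), and by 1.48 ± 0.11, 0.88 ± 0.12 and 1.08 ± 0.08 in Full-KO (adjusted p at most 3.89e-05). Kpna6, a nuclear import receptor, rose in Full-KO by 0.76 ± 0.05, 0.46 ± 0.04 and 0.81 ± 0.04 in that order (edgeR adjusted p at most 2.64e-08), and Impdh1, an enzyme of guanine nucleotide synthesis, by 0.49 ± 0.06, 0.24 ± 0.06 and 0.56 ± 0.05 (adjusted p at most 0.0164). In Delta_19, Kpna6 had smaller values of 0.36 ± 0.05, 0.12 ± 0.04 and 0.36 ± 0.04, uncalled in heart (edgeR adjusted p = 0.21). Impdh1 had 0.29 ± 0.06, 0.23 ± 0.06 and 0.46 ± 0.05 in Delta_19, also uncalled in heart (adjusted p = 0.0657).

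The relatives of the 7 genes were 24 genes of the same families. Their median log2 fold changes in Delta_19 were 0.07, -0.06 and -0.03 in tail bud, heart and remaining embryo. Of all genes, 1.03%, 0.406% and 1.88% were called in Delta_19 in those tissues. Among the relatives, edgeR called 0 in tail bud (7 with an unadjusted p below 0.05, and 1 called by DESeq2). It called 1 relative in heart and 1 in the remaining embryo, and nothing is read from these counts. Both calls were Reep5, a relative of Reep3 that shapes tubular endoplasmic reticulum, named after its values were seen, which fell by 0.19 in heart (adjusted p = 0.0485) and 0.27 in the remaining embryo (adjusted p = 0.00998). In Full-KO, 5 relatives rose in tail bud, 1 fell in heart, and 1 rose and 3 fell in the remaining embryo, where 10.4%, 3.91% and 6.66% of all genes were called in either direction. DESeq2 called 6, 3 and 4 relatives there. Among those that rose in tail bud were Wdfy3 (0.37 ± 0.08, edgeR adjusted p = 0.00376) and Nbea (0.31 ± 0.09, adjusted p = 0.0412), which share the BEACH domain with Nbeal2. The 10 calls of relatives in Full-KO became 6 without Full-KO tail bud replicate 3, and the 2 in Delta_19 became 4 without Wild-type tail bud replicate 2 and 1 without some heart or remaining-embryo libraries. A miR-19 8mer was present in 1 of the 24.

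Partners of Rnf11 in ubiquitin editing and its HECT ligases, 11 genes that include Tnfaip3 (A20), Tax1bp1, Itch, Nedd4, Smurf1 and Smurf2, were not called by edgeR in Delta_19 or Full-KO in any tissue. In Delta_19, 0, 0 and 1 of them had an unadjusted p below 0.05 in tail bud, heart and remaining embryo, and DESeq2 called 0. In Full-KO, 2, 2 and 1 did, and DESeq2 called 1, in heart. Their median log2 fold changes lay between -0.01 and 0.07. As background, edgeR called 1.03%, 0.406% and 1.88% of all genes in Delta_19 in those tissues. In Full-KO it called 10.4%, 3.91% and 6.66%. With 11 partners, nothing is read from the absence of calls. Tnfaip3 is also among the reported miR-19 targets.

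The 7 genes varied together to unequal degrees over the 71 libraries once each tissue's mean had been removed from log2 CPM. Pearson's r was 0.88 between Rnf11 and Lonrf1, 0.83 between Reep3 and Lonrf1 and 0.82 between Rnf11 and Reep3. Its median over the 21 pairs was 0.56, and the lowest was 0.16, between Spryd3 and Tcp11l2. These values are a description, since all points share libraries and genotypes and the genotypes that chose the genes are among them.

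Outside the 7, the genes whose pattern was most like their mean (each scaled to the same SD, among 15688 genes tested in all 3 tissues) were Suz12, a subunit of Polycomb repressive complex 2, with r = 0.94, Rhebl1, a small GTPase of the Rheb family, with 0.91, Acadm, the medium-chain acyl-CoA dehydrogenase of fatty acid oxidation, with 0.89, Ccm2, a scaffold protein of cerebral cavernous malformation, with 0.88, Uhmk1, a kinase, with 0.88, and C87436 with 0.87. Spearman's rho was lower, from 0.70 to 0.78, and r over the 24 group means higher, from 0.90 to 0.96. All but Uhmk1 held a miR-19 8mer, 1 each, where 5.24% of all genes with a 3′UTR held one. The ranking used the Delta_19 and Full-KO libraries that chose the 7 genes, so nothing is read from these matches. Suz12 had log2 fold changes of 0.73 ± 0.06, 0.46 ± 0.05 and 0.69 ± 0.03 in Delta_19 in tail bud, heart and remaining embryo.

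For single genes, the nearest in pattern were Acadm to Rnf11 (r = 0.95), Suz12 to Lonrf1 (0.93), Prpf18 to Reep3 (0.88), Tor1b to Spryd3 (0.84), Rhebl1 to Nbeal2 (0.82), Ctnnal1 to Epb41l4a (0.65) and C2cd5 to Tcp11l2 (0.62), over 71 libraries. The 5 nearest genes of the members with a miR-19 8mer each held 1 miR-19 8mer, and those of Epb41l4a and Tcp11l2 held 0. These genes too were found with the Delta_19 and Full-KO libraries, so their matches are a description only. Tor1b had the same order as Spryd3, with log2 fold changes of 0.16 ± 0.05, 0.24 ± 0.05 and 0.20 ± 0.05 in Delta_19 and 0.58 ± 0.05, 0.54 ± 0.05 and 0.60 ± 0.05 in Full-KO in tail bud, heart and remaining embryo.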

How the data were processed

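The deposited values are whole-number counts of reads per gene (37620 Ensembl gene IDs), not normalised. Per the submitters' processing notes, reads were processed with STAR (2.3.0), featureCounts (Subread 1.4.2) and SAMtools (0.1.14) on mm9 and NCBIM37; the annotation release, strand setting and handling of multi-mapping reads are not given in the sources used here. Symbols and 3′UTRs were taken by gene ID from GENCODE M21 (GRCm38), which named 32897 IDs and matched all 7 members, and mature miRNAs from RefSeq.

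Each tissue's libraries were fitted together with edgeR 4.0.16 in R 4.3.3 (filterByExpr by genotype, TMM, robust quasi-likelihood F tests, Benjamini-Hochberg threshold 0.05 over 17009 tail bud, 16750 heart and 17512 remaining-embryo genes), and the 9 Wild-type libraries in a fit of their own (16922 genes). All 7 members passed the filter in each fit. The script was tested on simulated data. Fold changes and SE come from these fits and CPM from 1 TMM scale over 71 libraries. Totals of 13532012 to 27477273 counts set the precision; the biological coefficient of variation was 8.74%, 8.87% and 6.47% in tail bud, heart and remaining embryo. All 70 replicate pairs differed by more than counting noise (chi-square per degree of freedom at least 2.66).

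The members and lists were chosen with earlier results of these data known. Besides the 7 members and Mir17hg, the rule names list genes called in Delta_19 or Full-KO in all 3 tissues in the same direction, up to 6 a list, the 6 genes most like the members' mean in pattern and the nearest gene to each. A gene that this rule names is not reported here. The marker lists covered heart muscle, tail bud, head and brain, erythroid cells, yolk sac, endothelium and platelets: yolk sac sums were 36.6 to 677 CPM in the remaining embryo, at most 9.96 elsewhere, and endothelial sums 662 to 914 in heart and 275 to 375 elsewhere. Alternatives were RLE size factors, other filters on low counts, DESeq2 1.42.0, a replicate block, fits of only the genotypes compared, each library left out, and for seeds another 3′UTR. The 7mer-A1 search was added after the data were seen. Same-numbered Wild-type libraries of different tissues deviated together (correlations across genes of 0.128 to 0.379 for tail bud and remaining embryo and 0.138 to 0.291 for heart and remaining embryo), so the numbers may pair tissues there. For tail bud and heart the lowest was 0.095. The sample titles do not say whether a number stands for 1 embryo, and the main fit of Wild-type tissues had no term for it.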

Additional observations from a re-analysis of the deposited data

Results flagged for a closer look

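Rnf11 had small fold changes of opposite sign in 2 tissues of Delta_17_18_92, the allele with miR-19 as its only family left. All 3 heart libraries (106, 103 and 112 CPM) lay above the Wild-type ones, at a log2 fold change of 0.11. All 3 tail bud libraries (48.8, 49.1 and 48.5 CPM) lay below those of Wild-type, at -0.11. The difference between the tissues was not tested, and neither value passed edgeR's test on its own (adjusted p = 0.369 and 0.368). It was the single such pattern among the 7 genes and 7 mutant alleles, and the share of all genes with such a pattern was not counted. A change of Rnf11 in either tissue was therefore not shown.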

How the results depend on the processing

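Under RLE size factors, other filters, DESeq2 and the replicate block, the 7 genes kept the median log2 fold changes and counts of calls given above within the spread between replicates or within 1.5 times, with these exceptions. A mean log2 CPM of at least 3 left 6 genes, without Tcp11l2, and the medians became 0.49 in Delta_19 heart, 0.54 in Full-KO heart and 0.65 in Delta_19 remaining embryo. Fits of only the 2 genotypes compared, with fewer libraries behind the spread, gave 0 calls of 35 in tail bud and 1 in heart for the alleles that keep miR-19, 8 calls of reported miR-19 targets over the 3 tissues in Delta_19 in place of 13, 0 relatives in place of 2, and 1 Rnf11 partner in Full-KO in place of 0. No filter and DESeq2 each also gave 1 such partner; the cause was not tested.

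With each library left out in turn, the calls in alleles that keep miR-19 were 1 to 3 in heart and 3 throughout elsewhere, and the Delta_19 medians were 0.63 to 0.89 in tail bud (0.63 without Delta_19 replicate 1) and 0.50 to 0.55 in heart. Relatives called were 1 to 4 in Delta_19 (4 without Wild-type tail bud replicate 2) and 6 to 12 in Full-KO (6 without Full-KO tail bud replicate 3), and Rnf11 partners 0 to 1 in Full-KO. Of 2863 values of uncalled genes over all alternatives in alleles that keep miR-19, 92 changed sign, and of 1240 values in Delta_19 and Full-KO, 21 moved by more than 1 SD.

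Same-numbered libraries of different genotypes did not deviate together (median correlations of -0.003, -0.057 and 0.012 in tail bud, heart and remaining embryo), and 6 of 21, 5 of 21 and 5 of 20 mutant libraries correlated best with the Wild-type library of their own number. The replicate block gave 3, 2 and 3 calls of 35 in those tissues, 12 and 28 calls of reported targets in Delta_19 and Full-KO, and ended none of the 24 calls of the 7 genes, those between Wild-type tissues included. Depth limits Tcp11l2 outside the heart.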
